A study of Mus musculus with 12 samples.

Results

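Genes for Wnt ligands, their receptors and their extracellular and nuclear modulators were followed across 12 microarrays of mouse epithelial cell preparations. Members were taken by symbol: every Wnt, Fzd (frizzled) and Sfrp gene, Dkk1 to Dkk4, Rspo1 to Rspo4, Lgr4 to Lgr6, and Lrp5, Lrp6, Axin2, Lef1, Tcf7 and Wif1. The rule found 63 of the 41174 distinct probes on the array, which stood for 49 of its 17178 named genes. Lrp6 was matched by no probe. A gene was tested when its probe was well above background on all 3 arrays of at least 1 group, which held for 45 members out of 24505 features tested. Dkk4, Rspo2, Wnt3 and Wnt8a did not pass and have no test. Because a gene could pass through a single group in which it was bright, the tested members are not a neutral sample of the 49.

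The series concerns regeneration of organs in vivo from adult cells whose lineage was changed by the surrounding stroma, and it holds 4 groups of 3 arrays. Adult lung and adult mammary cells came from female mice aged 10 weeks, whose organs were digested with trypsin and collagenase and purified by differential centrifugation, with no sort described. The other groups are labelled Reprogrammed Lung and Reprogrammed Mammary epithelial cells, with nothing in the labels to tell if that organ is where the cells came from or what they grew into. An adult donor age of 10 weeks is recorded for them too. Strain, transgenes, the interval after transplantation and pooling of animals are not given in the sources used here, nor are replicates said to come from separate mice, so p-values measure the spread between these arrays. Every preparation can hold stroma, vessels and blood cells, and in such bulk RNA fewer cells of a type and less RNA per cell cannot be told apart.

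Wnt proteins are secreted lipid-modified ligands that bind frizzled receptors together with the co-receptors Lrp5 and Lrp6. In the canonical branch this halts the destruction of beta-catenin, which then acts with Tcf and Lef factors in the nucleus, while ligands such as Wnt5a mostly signal without beta-catenin. R-spondins bind Lgr receptors and raise the response, and the Sfrp, Dkk and Wif proteins restrain it outside the cell. In the mammary gland the pathway is known for bud formation and for basal stem cells, and in the lung for endoderm specification, alveolar type II cells and the vessel wall.

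Of the 49 member genes, 33 had a promoter window in the RefSeq table for GRCm38.p6, whereas no genome of the build used by the submitters was at hand, so coordinates below refer to GRCm38.p6 only. The 250 bases before the start site are shown 5′ to 3′ for 4 members: Wnt3a and its chromosomal neighbour Wnt9a, whose levels differed in pattern, Wnt5b, for which 1 of 3 windows, the one shown, holds a Tcf motif, and Sfrp5, an antagonist with a large difference between groups. Capitals mark a match to CTTTGAT or CTTTGTT, the Tcf/Lef core, searched on both strands.
Wnt3a, chr11:59290752-59291001, minus strand: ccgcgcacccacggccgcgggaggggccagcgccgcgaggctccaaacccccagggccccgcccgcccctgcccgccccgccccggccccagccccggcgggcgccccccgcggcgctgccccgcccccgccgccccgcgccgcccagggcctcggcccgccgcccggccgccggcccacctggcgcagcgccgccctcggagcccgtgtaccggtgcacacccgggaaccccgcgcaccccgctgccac
Wnt9a, chr11:59306680-59306929, plus strand: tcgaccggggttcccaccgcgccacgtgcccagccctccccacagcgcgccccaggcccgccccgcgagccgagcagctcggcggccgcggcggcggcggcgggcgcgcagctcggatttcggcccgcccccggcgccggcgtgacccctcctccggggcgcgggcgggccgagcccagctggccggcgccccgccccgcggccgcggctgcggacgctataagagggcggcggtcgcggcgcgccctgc
Wnt5b, chr6:119449387-119449636, minus strand: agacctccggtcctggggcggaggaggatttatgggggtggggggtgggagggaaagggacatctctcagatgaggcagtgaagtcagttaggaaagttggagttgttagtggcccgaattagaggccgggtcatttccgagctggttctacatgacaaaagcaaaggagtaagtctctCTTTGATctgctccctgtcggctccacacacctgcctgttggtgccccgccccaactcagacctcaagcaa
Sfrp5, chr19:42202253-42202502, minus strand: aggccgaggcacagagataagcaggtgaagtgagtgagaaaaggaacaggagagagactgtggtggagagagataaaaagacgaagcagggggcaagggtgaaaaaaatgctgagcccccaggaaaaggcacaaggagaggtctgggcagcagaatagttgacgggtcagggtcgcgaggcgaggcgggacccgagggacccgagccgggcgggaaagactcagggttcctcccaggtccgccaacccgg
The Wnt3a window had a GC content of 86.3% over 300 bases (250 before and 50 after the start). Across all member windows the median was 67.3%, against 52.7% for all promoters in the table. A core motif was present in 5 of 40 member windows (12.5%) and in 3066 of 32851 windows of the same length (9.33%). Such a match is a description of letters and no evidence of binding.

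Each value below is a level, the log2 signal of a gene's probe minus the 75th percentile of log2 signal on that array, so it can be compared between arrays for 1 gene but not between genes. The 75th percentile of the signal ranged from 293.8 to 608.5 and 71.8% to 91.1% of probes were well above background. Reprogrammed lung replicate 1 and adult mammary replicate 4 stood apart, with a narrow span of signals (6.10 and 7.11 log2 units over the central range of probes, 8.46 to 9.13 on the others) and the most probes above background (91.1% and 89.1%). Lung alveolar markers, over the 5 genes with a value on every array, averaged 3.55 to 3.83 on adult lung and -2.32 to -1.68 on reprogrammed lung. Of all 6 listed, the lung regulator Nkx2-1 was not well above background on any reprogrammed lung array and the other 5 were above background on all 3, at lower levels than on adult lung. The same held on the adult mammary arrays, where the mean over the 5 genes was -2.31 to -1.96. Mammary luminal markers averaged 0.44 to 3.04 on reprogrammed lung arrays, 2.51 to 2.90 on adult mammary arrays and -2.84 to -2.30 on adult lung arrays. Adult lung replicate 3 also differed from its group in basal keratin Krt5, which was at 3.14 there against -3.43 and -2.88.

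**Figure D1:**
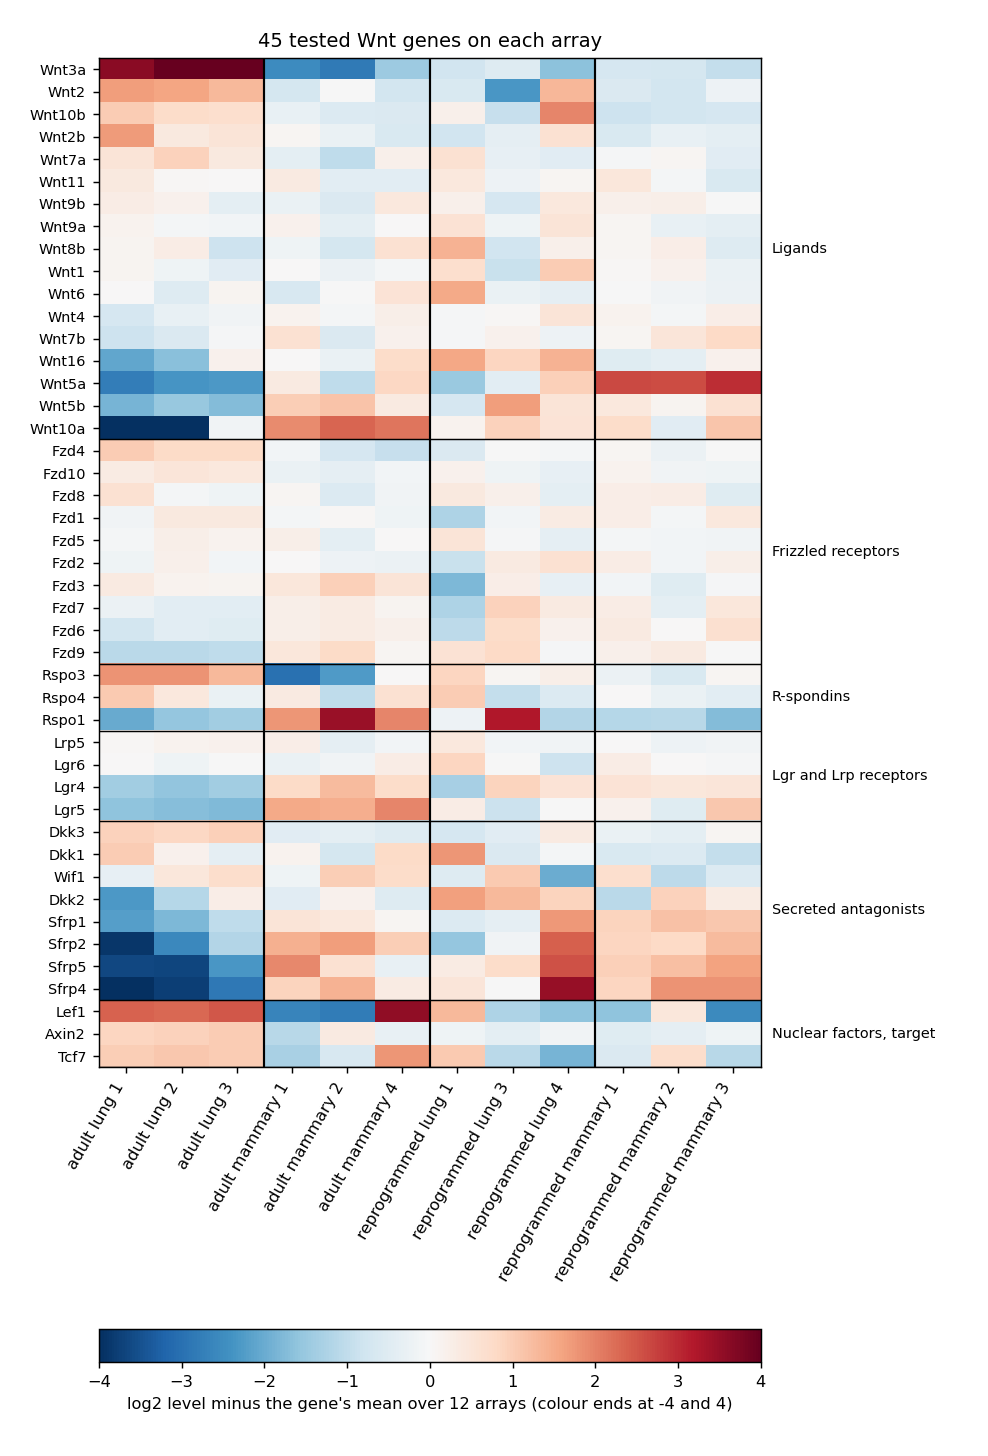
Level of the 45 tested members (rows, by role and then by adult lung minus adult mammary) on the 12 arrays (columns), each gene centred on its own mean so that red is above and blue below it, in log2 units. Wnt3a stands above its mean on the 3 adult lung arrays only, Wnt5a is highest on the 3 reprogrammed mammary arrays, and the Sfrp genes are low on adult lung.

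Adult lung and adult mammary cells differed in some genes for ligands, R-spondins, receptors and secreted antagonists and in the target Axin2. The nuclear factors Lef1 and Tcf7 were not among them. Of the 45 tested members, 17 (37.8%) passed an adjusted p of 0.05 in limma, 6 higher in lung and 11 lower, while 28.5% of all features tested passed (12.5% higher and 15.9% lower). Lung was higher for the ligand Wnt3a, the R-spondin Rspo3, the receptor Fzd4, the antagonist family member Dkk3 and Axin2. The sixth call counted as higher, Fzd10, has no settled direction because its other probe differed the opposite way. Mammary was higher for Wnt10a, Wnt5a and Wnt5b, for 4 Sfrp antagonists, for Rspo1, for the R-spondin receptors Lgr4 and Lgr5, and for Fzd9. The median log2 difference was -0.02 for members and 0 for all features. Lung and mammary arrays did not overlap for 25 of the 45 members, including all 17 that passed, and for 52.9% of all features, which is about the same share. Correcting background by normexp moved the median of all features to 0.34 and the share of calls that were higher in lung from 44.0% to 60.9%, with 10 members higher and 4 lower. Under normexp Wnt3a (2.86), Rspo3 (1.53) and Wnt10a (-1.65) still passed with smaller differences, while Sfrp4 (-0.91), Sfrp5 (-1.27), Rspo1 (-1.35), Wnt5a (-1.21), Sfrp1 (-1.04) and Lgr5 (-0.94) did not. With the slide as a fixed block 7 members passed, and the calls of Dkk3, Axin2, Fzd10, Sfrp1, Sfrp2, Sfrp5, Lgr4, Wnt5a, Wnt5b and Rspo1 were lost.

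Arrays labelled reprogrammed lung differed from adult lung in 17 of the 45 members, 12 higher and 5 lower, against 23.4% of all features (14.1% higher and 9.31% lower). The genes higher on reprogrammed lung were Sfrp1, Sfrp2, Sfrp4, Sfrp5 and Dkk2 among antagonists, Wnt10a, Wnt16, Wnt5a and Wnt5b among ligands, and the receptors Lgr4, Lgr5 and Fzd9. Wnt3a, Dkk3, Axin2 and Fzd4 were lower, and the call of Fzd10, counted with them, again had no settled direction. This comparison and the one between adult organs share the 3 adult lung arrays, so their signs are not independent of each other. Groups did not overlap for 20 of the 45 members and for 36.3% of all features. The median log2 difference was 0.06 for members and 0.10 for all features. The split depended on background correction and on scaling. With normexp 1 member was higher and 5 were lower (median of all features -0.20, share of all calls that were higher 39.7% against 60.2%). With quantile normalization the counts were 8 and 8 (50.7%), and with the authors' deposited values 7 and 8 (47.5%). Under normexp the calls of Sfrp4 (1.44), Sfrp5 (1.66), Sfrp1 (1.06), Sfrp2 (2.35), Wnt10a (0.46), Wnt5a (1.01) and Lgr4 (0.74) were lost, while Wnt3a (-2.56) and Wnt5b (1.92) passed. With the slide as a fixed block those of Wnt10a, Sfrp1, Sfrp2, Lgr4 and Fzd10 were lost. Without adult lung replicate 1 10 members passed, and without replicate 2 8 members.

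None of the members passed in the other comparisons, where calls were rare for all features too. Reprogrammed mammary against adult mammary gave 0 of 45, against 0.00408% of all features. Reprogrammed lung against adult mammary gave 0 of 45, against 0.0286%, and reprogrammed lung against reprogrammed mammary gave 0 of 45, against 0.00816%. At an unadjusted p under 0.05 in limma, 5 members (11.1%) were counted in the first of these, 5 (11.1%) in the second and 2 (4.44%) in the third, where the share of all features was 10%, 11.8% and 9.59%. Groups did not overlap for 9, 6 and 3 of the 45 members in the same order, and for 23.4%, 11.5% and 13.3% of all features. Spread between arrays was unequal: the median SD of the members was 0.28 in adult lung, 0.39 in adult mammary, 0.81 in reprogrammed lung and 0.24 in reprogrammed mammary, and for all features 0.18, 0.29, 0.51 and 0.20.

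**Figure D2:**
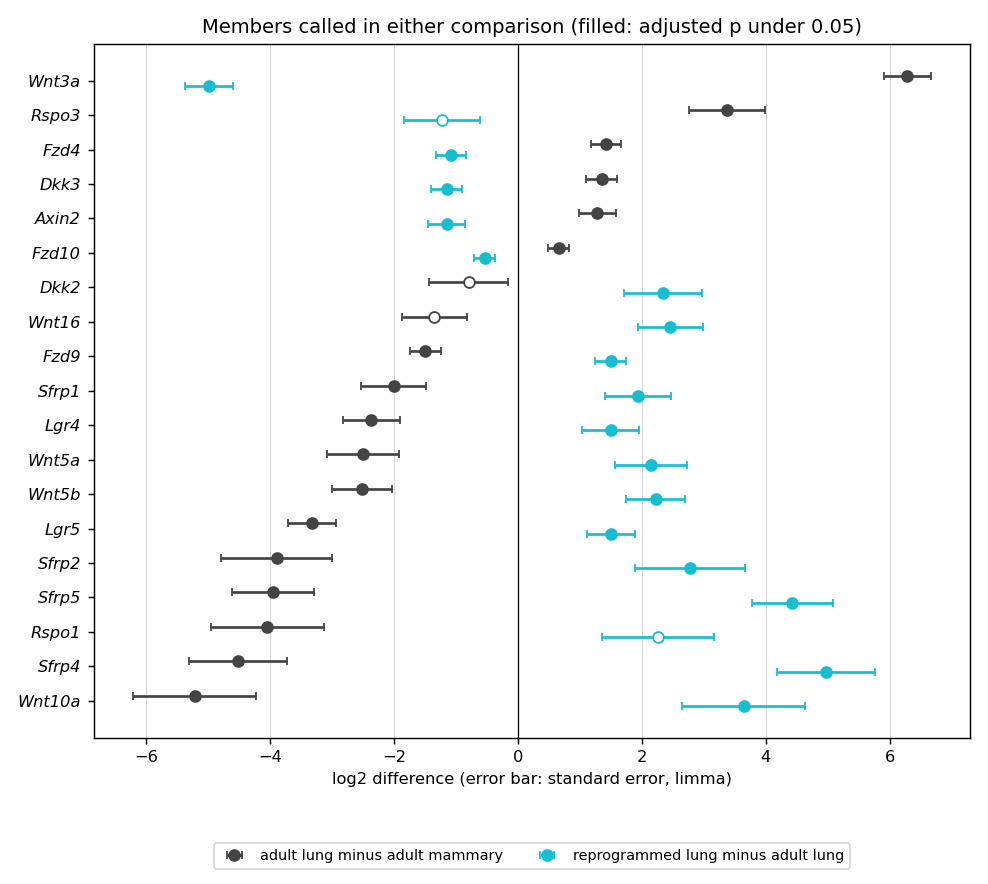
Log2 difference with its standard error (limma) for the 19 members called in either comparison, adult lung minus adult mammary in dark grey and reprogrammed lung minus adult lung in light blue, filled where the adjusted p is under 0.05. Wnt3a has the largest positive difference in the first (6.28) and Sfrp4 in the second (4.97), and both use the same 3 adult lung arrays.

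Of the 17 tested ligands, 23.5% passed between the adult organs, 1 higher and 3 lower in adult lung, beside 28.5% of all features. Between reprogrammed and adult lung 29.4% passed, 4 higher and 1 lower on reprogrammed lung, beside 23.4% of all features. Values are given in the order of the replicate numbers, which are 1, 2 and 3 for adult lung and reprogrammed mammary, 1, 2 and 4 for adult mammary, and 1, 3 and 4 for reprogrammed lung. Wnt10a, a beta-catenin ligand of ectodermal appendages, was at -6.82, -7.05 and -2.5 on adult lung and at -0.47, -0.02 and -0.21 on adult mammary. It was at -2.22, -1.44 and -1.79 on reprogrammed lung and at -1.60, -2.80 and -1.24 on reprogrammed mammary. Adult lung had the lowest mean, with only replicate 3 well above background, and adult mammary highest. The reprogrammed groups overlapped each other below adult mammary, and reprogrammed mammary replicate 2 was below adult lung replicate 3. The adult lung mean was -5.46 ± 2.56 (SD, n = 3) and the adult mammary mean -0.23 ± 0.23 (SD, n = 3), a log2 difference of -5.22 (SE 0.99, adjusted p = 0.00315). This is at least 14.5-fold lower when the lung arrays below background are set to the array's lowest signal well above background. From adult to reprogrammed lung Wnt10a rose by 3.64 (SE 0.99, adjusted p = 0.0223, at least 4.85-fold). Without adult lung replicate 1 or 2 that difference was 2.96 or 2.84 and no longer passed (adjusted p = 0.0907 and 0.0885), without reprogrammed lung replicate 3 it was 3.45 (adjusted p = 0.0640), and without adult lung replicate 3 it was 5.12 (adjusted p = 0.000144).

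The high Wnt10a value on adult lung replicate 3 stood beside other values of that array. The mean of 6 mammary basal and myoepithelial markers with a value on every array was 0.15 there and -2.01 and -1.88 on replicates 1 and 2, and it was 1.80 to 2.40 on adult mammary. These markers were not uniform across replicates 1, 2 and 3. Krt5 was at -3.43, -2.88 and 3.14, and Trp63 at -6.82, -5.96 and -3.09. Krt14 was at 0.43, 0.48 and 2.34, and Krt17 at -1.30, -1.36 and -0.49. Myh11, at 2.70, 2.83 and 3.27, was little higher on replicate 3. Oxtr was not, at -3.62, -4.38 and -4.28 against -1.28 to 0 on adult mammary. Among the 11 members lower in adult lung than in adult mammary, 9 had their highest adult lung level on replicate 3. That held for 2 of the 6 members higher in adult lung and for 19 of all 45 tested members. Within the slide that carried both, Wnt10a on reprogrammed lung exceeded adult lung by 5.38, 5.26 and 0.28, the last being the slide with adult lung replicate 3. Whether basal-type cells account for that level was not tested. Wnt6, which lies next to Wnt10a on chromosome 1, did not follow it: Wnt6 averaged -2.49 in adult lung and -2.38 in adult mammary, a log2 difference of -0.10 (SE 0.47).

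Wnt3a, a canonical ligand, had the largest difference of the ligands. Its level was -0.58, 0.07 and -0.06 on adult lung and -6.72, -7.02 and -5.65 on adult mammary, where no array was well above background. Reprogrammed lung was at -4.98, -4.72 and -5.83 and reprogrammed mammary at -4.86, -4.92 and -5.16, with 1 and 2 arrays above background. Only the 3 adult lung arrays were therefore high. Adult lung exceeded adult mammary by 6.28 (SE 0.38, adjusted p = 5.41e-06, at least 31.7-fold), and reprogrammed lung fell by 4.99 from adult lung (SE 0.38, adjusted p = 2.16e-05, at least 27-fold). The calls held without any 1 array, and within the shared slides the second difference was -4.14, -5.90 and -4.92. Wnt9a, the neighbour of Wnt3a on chromosome 11, was at -2.16 to -1.93 on adult lung and -2.46 to -1.88 on adult mammary, a difference of 0.05 (SE 0.25).

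Wnt5a and Wnt5b, closely related ligands of the branch without beta-catenin, were both lower in adult lung. Wnt5a was at -3.02, -2.62 and -2.55 on adult lung, at 0.10, -1.28 and 0.55 on adult mammary, at -1.76, -0.68 and 0.68 on reprogrammed lung, and at 2.38, 2.35 and 2.70 on reprogrammed mammary. Reprogrammed mammary lay above every other array. Adult lung was lower than adult mammary by a log2 difference of -2.51 (SE 0.58, adjusted p = 0.00912), and reprogrammed lung was higher than adult lung by 2.14 (SE 0.58, adjusted p = 0.0227). That second call was lost without any 1 adult lung array (differences of 2.00 to 2.23) and without reprogrammed lung replicate 3 (2.19, adjusted p = 0.0505) or 4 (1.51, adjusted p = 0.0546). Reprogrammed mammary differed from adult mammary by 2.69 (SE 0.58) and reprogrammed lung from reprogrammed mammary by -3.06 (SE 0.58), neither of which passed (adjusted p = 0.186 and 0.156), although the groups did not overlap. With array weights the first of these passed (2.84, adjusted p = 0.0164), and without reprogrammed lung replicate 4 the second did (-3.70, adjusted p = 0.0203).

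Wnt5b was at -0.67, -0.33 and -0.54 on adult lung and at 2.17, 2.32 and 1.54 on adult mammary, a log2 difference of -2.52 (SE 0.48, adjusted p = 0.00322). On reprogrammed lung it stood at 0.52, 2.88 and 1.72, above each adult lung array, and on reprogrammed mammary at 1.62, 1.30 and 1.79. Its rise from adult to reprogrammed lung was 2.22 (SE 0.48, adjusted p = 0.00732), and a further Wnt5b probe gave -1.58 and 1.31 for the same comparisons. Wnt16, a ligand of skin and bone, was at -6.26, -5.84 and -3.99 on adult lung and at -2.62, -3.32 and -2.77 on reprogrammed lung. The groups did not overlap, only replicate 3 of adult lung was above background, and the difference was 2.46 (SE 0.52, adjusted p = 0.00677, at least 3.22-fold), but with normexp it was -0.12. Adult mammary stood at -4.16, -4.45 and -3.44, and adult lung did not pass against it (-1.35, adjusted p = 0.0793).

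The remaining ligands with separate adult groups missed the threshold. Wnt2, a mesenchymal lung ligand, was at 0.34, 0.25 and -0.02 on adult lung and at -2.02, -1.35 and -2.06 on adult mammary, a difference of 2.00 (SE 0.69, adjusted p = 0.0528). Differences of 1.02 for Wnt7a (adjusted p = 0.0521), 1.13 for Wnt2b (0.0584) and 1.28 for Wnt10b (0.104) had the same sign, and Wnt4 had the opposite one (-0.47, adjusted p = 0.122). On reprogrammed lung replicate 4, Wnt2 was at -0.01 and Wnt10b at -0.40, against -3.65 to -1.95 and -3.28 to -2.15 on the other arrays of that group. That array also had the highest fibroblast marker mean of all 12, at 4.99. Adult lung, with fibroblast means of 2.21 to 3.20, had Wnt2 at -0.02 to 0.34 and Wnt10b at -1.70 to -1.34. Reprogrammed mammary, with means of 4.23 to 4.48, had Wnt2 at -2.06 to -1.54 and Wnt10b at -3.20 to -3.04. The part of fibroblasts in these values was not tested. Wnt1, Wnt4, Wnt6, Wnt7b, Wnt8b, Wnt9a, Wnt9b and Wnt11 passed in no comparison.

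**Figure D3:**
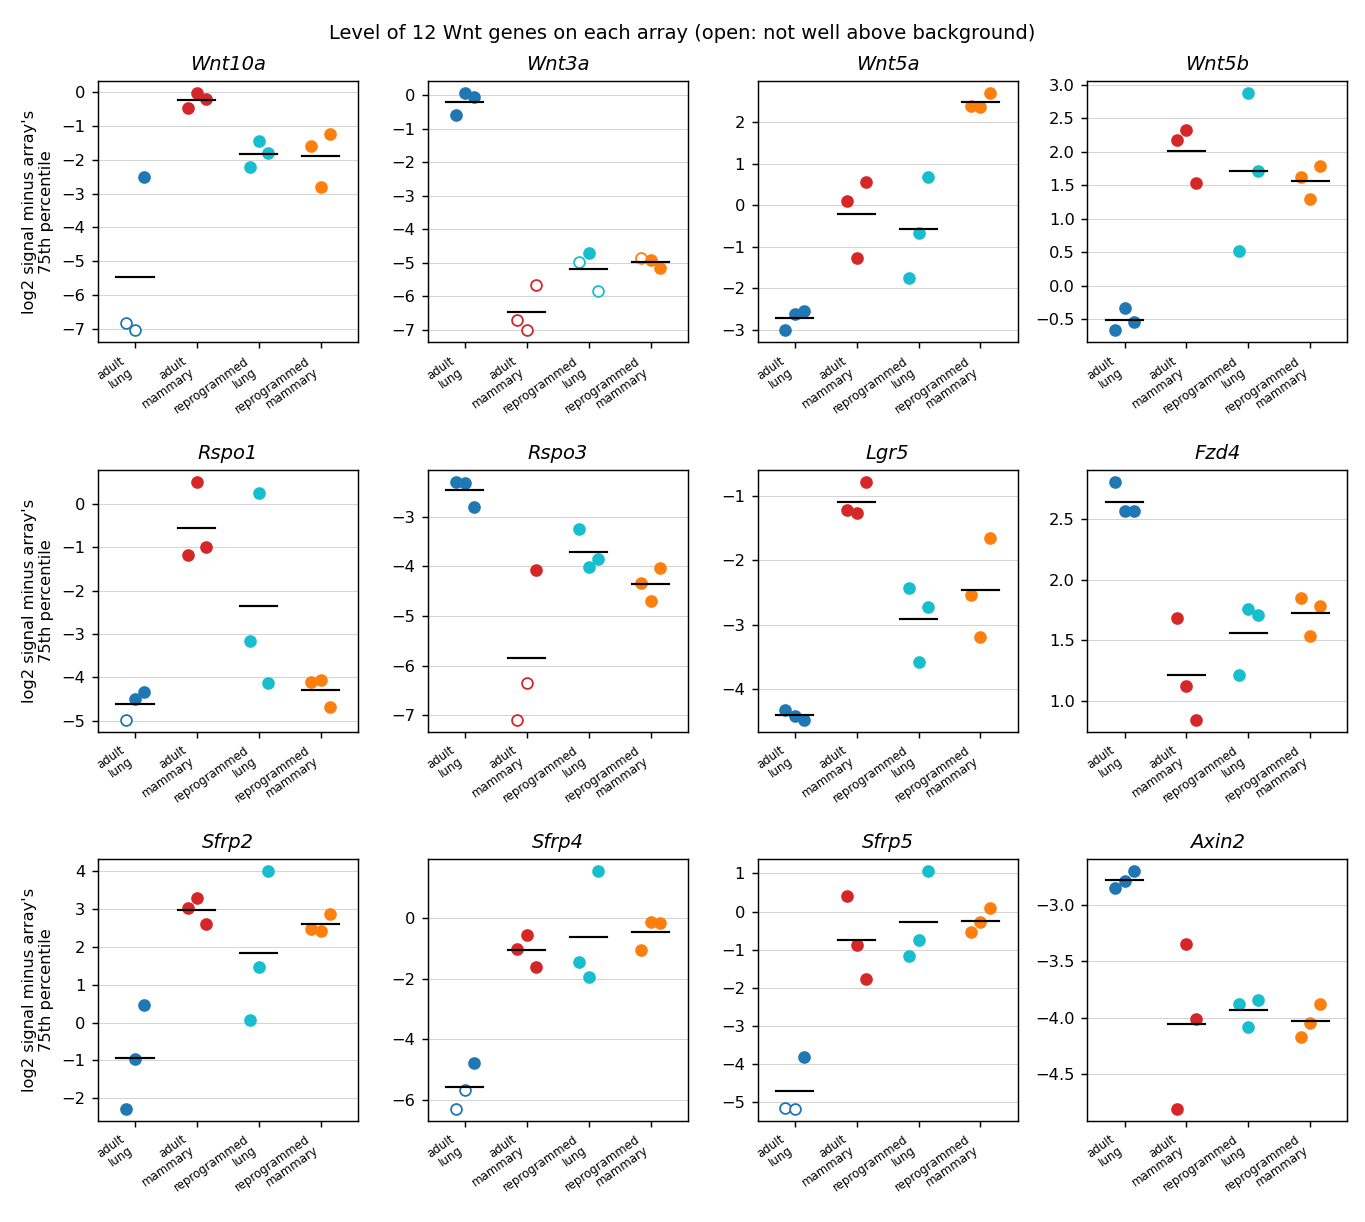
Level (log2 signal minus the array's 75th percentile) of 12 members on each array, with 1 point per array, a bar at each group mean and open points for arrays not well above background. Wnt3a is near 0 on adult lung and between -7.02 and -4.72 elsewhere, Wnt10a is lowest on 2 adult lung arrays, and Rspo1 has 1 reprogrammed lung array at 0.25 and the others at -3.16 and -4.13.

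R-spondins, the ligands of Lgr4 to Lgr6, moved in opposite directions between the adult organs. Rspo3, known from lung and vessel development, was at -2.30, -2.31 and -2.80 on adult lung and at -7.09, -6.36 and -4.08 on adult mammary, where only replicate 4 was well above background. Adult lung was higher by 3.37 (SE 0.61, adjusted p = 0.00259, at least 4.73-fold). Reprogrammed lung, at -3.24, -4.02 and -3.85, lay above adult mammary without overlap, replicate 4 of adult mammary being close beneath it, and that difference was 2.14 (SE 0.61, adjusted p = 0.256). Without adult mammary replicate 4 it was 3.02 and passed (adjusted p = 0.0254). Rspo1, a mammary stem cell factor, was at -4.97, -4.50 and -4.34 on adult lung and at -1.17, 0.50 and -1.0 on adult mammary, a difference of -4.05 (SE 0.91, adjusted p = 0.00817, at least 15.1-fold).

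Rspo1 also separated the mammary arrays. Reprogrammed mammary was at -4.10, -4.05 and -4.68, below all 3 adult mammary arrays, and the difference of -3.72 (SE 0.91) did not pass (adjusted p = 0.240). It passed without reprogrammed lung replicate 3 (adjusted p = 0.0495) and with array weights (-3.80, adjusted p = 0.0345). Reprogrammed lung spread widely, from 0.25 on replicate 3 to -4.13 on replicate 4, an SD of 2.30 that was the largest of the 45 tested members in that group. Its difference from adult lung, 2.26 (SE 0.91), did not pass (adjusted p = 0.104). Rspo4 passed in no comparison.

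Lgr5, an R-spondin receptor that marks stem cells of several epithelia, was at -4.33, -4.43 and -4.48 on adult lung and at -1.21, -1.26 and -0.78 on adult mammary. The difference was -3.33 (SE 0.39, adjusted p = 0.000217), or -0.94 with normexp, which did not pass (adjusted p = 0.0961). On reprogrammed lung it was at -2.43, -3.58 and -2.72 and on reprogrammed mammary at -2.54, -3.20 and -1.65, so both reprogrammed groups lay between the adult groups without overlapping either. Reprogrammed lung was higher than adult lung by 1.5 (SE 0.39, adjusted p = 0.0172), a call lost without adult lung replicate 2 (adjusted p = 0.0535) or 3 (0.0540) and reversed in sign by normexp (-0.15). The differences from adult mammary, -1.82 for reprogrammed lung and -1.38 for reprogrammed mammary, did not pass (adjusted p = 0.167 and 0.279). Lgr4, a broadly expressed relative, was -2.51 to -2.30 on adult lung and -0.18 to 0.34 on adult mammary, a difference of -2.37 (SE 0.46, adjusted p = 0.00375). Its rise of 1.5 from adult to reprogrammed lung (adjusted p = 0.0395) was lost without any 1 array other than reprogrammed lung replicate 1, whose level of -2.25 was close to adult lung, and 2 further probes gave 1.51 and 2.33. Lgr6 and Lrp5 passed in no comparison.

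Of 10 frizzled receptors, 3 (30%) passed between the adult organs and 3 (30%) between reprogrammed and adult lung, beside 28.5% and 23.4% of all features. Fzd4, a receptor known from retinal vessels, was at 2.80, 2.56 and 2.56 on adult lung, at 1.68, 1.13 and 0.85 on adult mammary, at 1.22, 1.76 and 1.71 on reprogrammed lung and at 1.85, 1.54 and 1.78 on reprogrammed mammary. Adult lung alone was high, by 1.42 over adult mammary (SE 0.24, adjusted p = 0.00157), and reprogrammed lung fell by 1.08 from it (SE 0.24, adjusted p = 0.00808). Endothelial markers were also highest on adult lung, averaging 4.30 to 4.45 there and 0.80 to 2.42 on the other arrays, and their part in the Fzd4 values was not tested. Fzd9 was at -4.66 to -4.58 on adult lung and -3.48 to -2.79 on adult mammary, a difference of -1.5 (SE 0.25) that turned to 0.27 with normexp. The Fzd9 difference between reprogrammed and adult lung was 1.5 (SE 0.25), or -0.20 with normexp.

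Fzd10 gave opposite answers from its pair of probes. The brighter probe was at -0.39, -0.23 and -0.30 on adult lung and at -0.99, -1.08 and -0.84 on adult mammary, a difference of 0.66 (SE 0.17, adjusted p = 0.0168). The other probe was at -6.29, -7.21 and -5.59 on adult lung, below background on all 3, and at -2.86, -2.71 and -2.60 on adult mammary, a difference of -3.65 (SE 0.38, adjusted p = 0.000113). For reprogrammed against adult lung the brighter probe gave -0.54 (adjusted p = 0.0474) and the other 2.74 (adjusted p = 0.000628). No direction can therefore be given for Fzd10. Fzd1 to Fzd3 and Fzd5 to Fzd8 did not pass on the probe used, while a further probe of Fzd3 (-1.15) and of Fzd7 (-1.0) was lower in adult lung than in adult mammary (adjusted p = 0.00788 and 0.0350).

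Of 8 secreted antagonists tested, 5 passed between the adult organs, 1 higher and 4 lower in lung, and 6 passed between reprogrammed and adult lung, 5 higher and 1 lower, beside 28.5% and 23.4% of all features. Sfrp4, a secreted frizzled-like decoy, was at -6.30, -5.68 and -4.78 on adult lung and at -1.03, -0.54 and -1.61 on adult mammary. On reprogrammed lung it was at -1.45, -1.95 and 1.56 and on reprogrammed mammary at -1.05, -0.12 and -0.14. Every adult lung array was below all the others. The differences were -4.52 between the adult organs (SE 0.79, adjusted p = 0.00208, at least 13.8-fold) and 4.97 between reprogrammed and adult lung (SE 0.79, adjusted p = 0.00150, at least 18.9-fold), with 1 adult lung array above background. Both calls were lost with normexp (-0.91 and 1.44), and without reprogrammed lung replicate 4 the second difference was 3.88.

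Sfrp5 had the same order of groups. It was at -5.14, -5.17 and -3.82 on adult lung, 0.42, -0.88 and -1.78 on adult mammary, -1.16, -0.75 and 1.06 on reprogrammed lung and -0.53, -0.28 and 0.10 on reprogrammed mammary. Its differences were -3.96 (SE 0.66, adjusted p = 0.00162, at least 13.7-fold) and 4.43 (SE 0.66, adjusted p = 0.00104, at least 18.9-fold), and both calls were lost with normexp (-1.27 and 1.66), the first also with the slide block (-3.99, adjusted p = 0.0512). Sfrp2, abundant in fibroblasts, was at -2.28, -0.96 and 0.46 on adult lung and at 3.03, 3.28 and 2.61 on adult mammary, a difference of -3.90 (SE 0.89, adjusted p = 0.00851). On reprogrammed lung it was at 0.07, 1.48 and 4.00, so that replicate 1 fell below adult lung replicate 3 and the groups overlapped, and on reprogrammed mammary it was at 2.47, 2.43 and 2.88. The rise of 2.78 from adult to reprogrammed lung (SE 0.89, adjusted p = 0.0455) was lost without any 1 array other than adult lung replicate 3 (3.47) or reprogrammed lung replicate 1 (3.67), with a value of 1.70 without reprogrammed lung replicate 4 (adjusted p = 0.104), and within 1 shared slide it was -0.39.

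Sfrp1 was at -2.81 to -1.61 on adult lung, -0.53 to -0.08 on adult mammary and -1.16 to 1.12 on reprogrammed lung. It differed by -2.01 (SE 0.53, adjusted p = 0.0167) and 1.94 (SE 0.53, adjusted p = 0.0227). Both calls were lost without adult lung replicate 1 (-1.74 and 1.67) or 2 (-1.95 and 1.88), and the first also without adult mammary replicate 1 (-1.92) or 2 (-1.97). The Sfrp genes stood beside fibroblast markers, whose mean over the 6 genes with a value on every array (Col3a1 left out) was 2.21, 2.39 and 3.20 on adult lung, 3.42 to 4.10 on adult mammary, 3.08, 2.99 and 4.99 on reprogrammed lung and 4.23 to 4.48 on reprogrammed mammary. The list was not uniform: Pdgfra was at 5.13 to 5.5 on adult lung and 2.65 to 3.28 on adult mammary, and Pdgfrb was at 2.43 to 2.91 and 0.75 to 1.87, opposite to the collagens, Dcn and Lum. All 7 listed fibroblast genes were well above background on every array. Sfrp1, Sfrp2, Sfrp4 and Sfrp5 each had their highest level of all 12 arrays on reprogrammed lung replicate 4, where the fibroblast mean was highest. The part of fibroblasts in the Sfrp differences was not tested.

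Dickkopf genes behaved one by one. Dkk3, a divergent member that does not bind Lrp co-receptors as Dkk1 does, was at 1.27, 1.18 and 1.31 on adult lung, -0.09, -0.03 and -0.16 on adult mammary, -0.30, -0.10 and 0.71 on reprogrammed lung and 0.10, -0.04 and 0.44 on reprogrammed mammary. Adult lung was above all the rest, by 1.35 over adult mammary (SE 0.25, adjusted p = 0.00266), and reprogrammed lung fell by 1.15 from it (SE 0.25, adjusted p = 0.00721). Dkk2 was at -6.84, -5.67 and -4.27 on adult lung and at -2.88, -3.22 and -3.65 on reprogrammed lung, a difference of 2.34 (SE 0.63, adjusted p = 0.0222, at least 2.70-fold) that became -0.18 with normexp. The Dkk2 call was lost without adult lung replicate 1 (1.72) or 2 (2.31) and without reprogrammed lung replicate 1 (2.16) or 3 (2.33). Dkk1 and Wif1 passed in no comparison.

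Axin2, a feedback target commonly read as a gauge of beta-catenin signalling, was at -2.85, -2.79 and -2.70 on adult lung and at -4.81, -3.35 and -4.01 on adult mammary. Reprogrammed lung was at -3.88, -4.08 and -3.84 and reprogrammed mammary at -4.17, -4.05 and -3.88. Adult lung exceeded every other array, by 1.28 over adult mammary (SE 0.30, adjusted p = 0.00955), and reprogrammed lung fell by 1.15 from it (SE 0.30, adjusted p = 0.0182). The second call was lost without adult lung replicate 2 (adjusted p = 0.0548) or 3 (0.0592) or reprogrammed lung replicate 3 (0.0545).

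The nuclear partners Lef1 and Tcf7 passed in no comparison, and their adult mammary and both reprogrammed groups each held 1 array well above the other arrays of the group. Lef1 was at 0.18, 0.10 and 0.29 on adult lung, -4.82, -4.97 and 1.36 on adult mammary, -0.90, -3.41 and -3.79 on reprogrammed lung and -3.80, -1.72 and -4.74 on reprogrammed mammary. Tcf7 was at 1.29, 1.38 and 1.32, at -1.0, -0.32 and 2.06, at 1.37, -0.77 and -1.55, and at -0.28, 1.01 and -0.80 in the same order. The adult lung arrays, adult mammary replicate 4, reprogrammed lung replicate 1 and reprogrammed mammary replicate 2 had the 6 highest levels of both genes. Those arrays also had the 6 highest means of T and NK cell markers, -0.50 to 1.52 against -3.79 to -2.14 on the rest. Both factors are known from T cells, and the part of T cells in these levels was not tested.

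**Figure D4:**
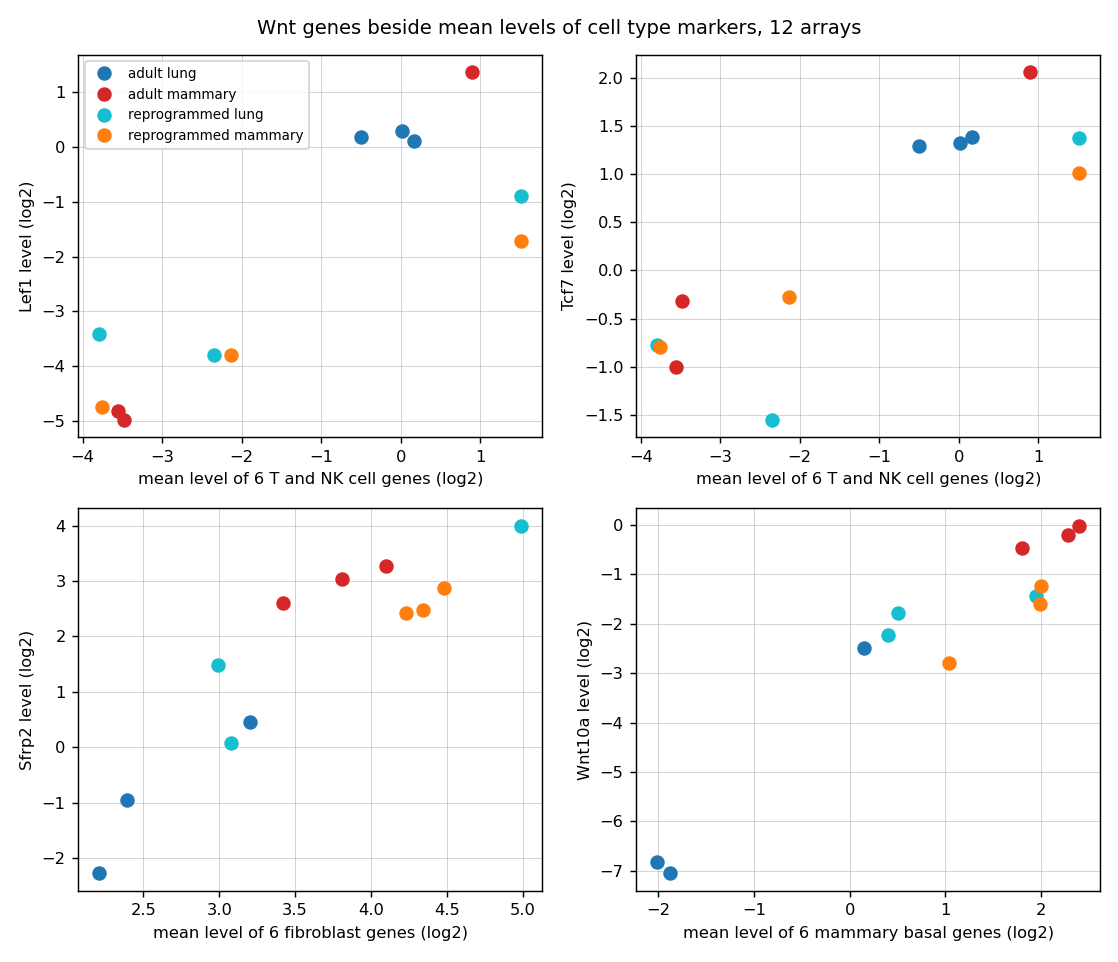
Level of Lef1, Tcf7, Sfrp2 and Wnt10a (log2, vertical) against the mean level of T and NK cell, fibroblast or mammary basal markers (log2, horizontal), with 1 point per array coloured by group. Lef1 and Tcf7 are high on the 6 arrays with T and NK means from -0.50 to 1.52, and the pair of adult lung arrays with the lowest basal means (-2.01 and -1.88) has the lowest Wnt10a levels.

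Other genes of the pathway were read from a list of 77, of which 72 had a probe and 69 were tested. Between the adult organs 21 of 69 (30.4%) passed, 7 higher and 14 lower in lung, where 28.5% of all features passed. Between reprogrammed and adult lung 14 of 69 (20.3%) passed, 9 higher and 5 lower, against 23.4% of all features, so both shares are near those of all features. Among genes that passed, the 4 largest lung-high differences were for the feedback inhibitor Nkd1 (3.12, SE 0.15), the polarity genes Prickle1 (2.22) and Prickle2 (1.94), and Ccn5 (2.17). Largest in the other direction were Twist1 (-5.16, at least 11.8-fold), the antagonist Sostdc1 (-3.67, at least 12.4-fold), Serpinf1 (-3.42) and the beta-catenin target Myc (-3.25). Nkd1, like Axin2 a feedback gene, was at 1.36, 1.18 and 1.14 on adult lung and between -2.02 and -1.19 on the other 9 arrays. Twist1 (5.87, at least 19.4-fold), Serpinf1 (3.89), Myc (3.63) and Sostdc1 (3.37) had, among genes that passed, the largest differences above adult lung on reprogrammed lung, and Nkd1 (-2.88), Prickle1 (-2.59), Tspan12 (-1.61), a partner of Fzd4, and the Wnt-modifying enzyme Porcn (-0.93) the largest below it. None of the 69 passed in the other comparisons.

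The change from adult to reprogrammed was then compared between the organ labels in the same limma model, a test added after the data had been seen. It passed for 11 of 45 members, against 12.8% of all features. The same contrast is the difference between the reprogrammed groups minus that between the adult organs, and no member passed between the reprogrammed groups. All that passed here except Wnt16 had passed between the adult organs, so the test is not independent of that comparison. Wnt3a and Wnt10a differed there by 6.28 and -5.22. The changes differed most for Wnt3a, -4.99 under the lung label and 1.49 under the mammary label, a difference of -6.47 (SE 0.54, adjusted p = 0.000145). The 1.49 lies near background, with no adult mammary and 2 reprogrammed mammary arrays well above it. It was 0.24 with normexp and 0.37 with the authors' deposited values. Rspo1 changed by 2.26 and -3.72 (difference 5.98, SE 1.29), Wnt10a by 3.64 and -1.65 (5.29, SE 1.39) and Lgr5 by 1.5 and -1.38 (2.88, SE 0.54). Wnt5a, at 2.14 and 2.69, showed no difference that passed (-0.55, SE 0.82, adjusted p = 0.722). For Wnt10a the test did not pass without adult lung replicate 1 (4.61) or 2 (4.49), nor without 7 of the other arrays in turn. With normexp only Wnt3a passed (-2.81), and Rspo1 (2.44), Wnt10a (1.69) and Lgr5 (0.75) did not.

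**Figure D5:**
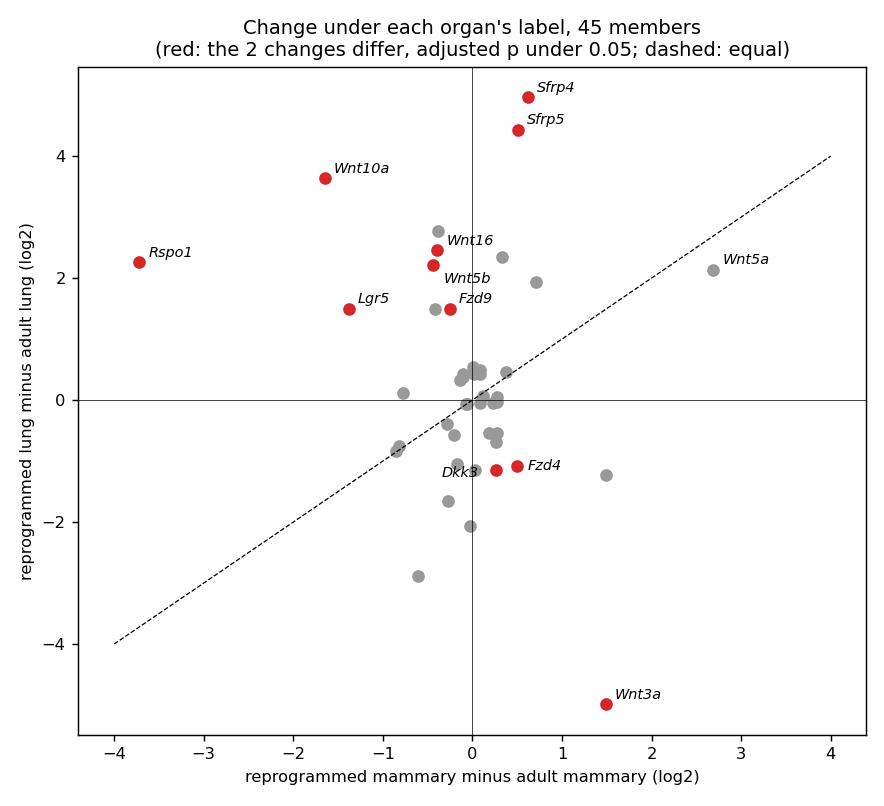
Log2 change from adult to reprogrammed under the lung label (vertical) against that under the mammary label (horizontal) for the 45 members, with the 11 whose changes differ (adjusted p under 0.05) in red and a dashed line of equal change. Wnt3a lies lowest at -4.99, Rspo1 farthest left at -3.72, and Wnt5a near the line at 2.69 and 2.14.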

How the data were processed

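Total RNA of 12 cell preparations was amplified, labelled with Cy3 and hybridised to 1-colour Agilent mouse arrays (design 014868), per the labels' protocols. The deposited scanner files hold the processed intensity of each spot, extracted with Feature Extraction 10.5.1.1 per the file headers (10.1 in the submitters' processing notes). The authors' deposited value table holds log2 values of the same arrays, and it served as an alternative.

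Of 43379 non-control spots, 41174 distinct probes were kept, with spots of a probe averaged and outlier spots left out. A gene symbol was given for 24844 probes (17178 symbols) and none for 16330. The intensity was taken to log2 and each array's 75th percentile was subtracted. Features well above background on all arrays of at least 1 group were tested, with the probe of highest mean standing for a gene. 24505 features were fitted over all 4 groups with limma 3.58.1 (lmFit and eBayes, R 4.3.3, 8 residual degrees of freedom), and two-sided p-values were adjusted by Benjamini-Hochberg within each comparison, with a threshold of 0.05. The fit was checked on simulated data. Of the features, 308 had a missing value after outlier removal, none of them a tested member.

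A fold of at least a given size sets the bright group's mean against the dim group's mean after a change to some dim arrays. Arrays not well above background take the higher of their own level and the lowest signal well above background on that array. The other arrays keep their level. That lowest signal is taken over all probes, so such a fold is not a strict bound for a single gene. Values are given on every array for called members, up to the 8 largest differences in each direction, and the 4 largest for other pathway genes in each direction. Members and gene lists were chosen with earlier results of these data known. The number of arrays limits the precision. Alternatives covered background correction (normexp with offset 50, run on the median signal because the files hold no mean signal), scaling, filters, slide and replicate blocks, array weights, probe choice and leaving out each array.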

Additional observations from a re-analysis of the deposited data

Results flagged for a closer look

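The change from adult to reprogrammed cells differed between the organ labels for 11 members, by a test of that difference in the limma fit. Of all features 12.8% passed. This contrast contains the difference between the adult organs, in which all of the 11 except Wnt16 had also passed. The values are the log2 change under the lung label minus that under the mammary label. Among ligands the difference was -6.47 for Wnt3a, 5.29 for Wnt10a, 2.85 for Wnt16 and 2.66 for Wnt5b. Among R-spondins and receptors it was 5.98 for Rspo1, 2.88 for Lgr5, 1.75 for Fzd9 and -1.58 for Fzd4. Among antagonists it was 4.35 for Sfrp4, 3.92 for Sfrp5 and -1.40 for Dkk3. Wnt3a, Lgr5, Fzd9, Fzd4 and Rspo1 passed without any 1 array, with a highest adjusted p of 0.000952, 0.0253, 0.0326, 0.0412 and 0.0404. With normexp, of the 11 only Wnt3a passed.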

How the results depend on the processing

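Between the adult organs 17 members passed, 7 with the slide as a fixed block and 15 to 21 when 1 array was left out. Between reprogrammed and adult lung 17 passed, against 6 with normexp, 11 when features had to be above background on all arrays, 9 with only the groups compared, and 8 to 21 with 1 array left out. The counts of 0 became 3 with array weights and 2 without the pair of arrays of narrowest signal span for reprogrammed against adult mammary, and 1 without that pair for reprogrammed lung against adult mammary. Leaving out 1 array gave 0 to 1 in each of these and in reprogrammed lung against reprogrammed mammary: Rspo1 without reprogrammed lung replicate 3, Rspo3 without adult mammary replicate 4 and Wnt5a without reprogrammed lung replicate 4. The change between organs differed for 11 members, for 1 with normexp and for 4 of the 32 left by the filter on all arrays. It differed for 5 with the slide block, 17 without the narrow pair and 5 to 14 with 1 array left out.

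Signs reversed with normexp for Fzd9 between the adult organs (0.27), for Wnt16 (-0.12), Dkk2 (-0.18), Lgr5 (-0.15) and Fzd9 (-0.20) between reprogrammed and adult lung, and for Fzd9 (-0.12) and Wnt16 (-0.10) in the change between organs. Averaging the probes reversed Fzd10 (-1.49 and 1.1), and Sfrp2 was -0.39 within slide 3. Apart from the fewer features or arrays that some settings hold, the cause was not tested. With the replicate block 17, 11, 0, 0 and 0 members passed in the order adult lung minus adult mammary, reprogrammed minus adult lung, reprogrammed minus adult mammary, reprogrammed lung minus adult mammary and reprogrammed lung minus reprogrammed mammary, and 3 in the change between organs. Deviations of 13 same-numbered pairs correlated at -0.53 to 0.33 (median 0.04), 5 of them above 0.1. Such correlations over whole arrays cannot settle if equal numbers stand for shared animals or batches. Members near background, such as Wnt16, Dkk2 and Fzd9 in adult lung, have only approximate bounds there.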
